A study of Homo sapiens with 6 samples.

Results

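The 10 genes described here are the human MHC class II genes and their coactivator: HLA-DRA, HLA-DRB1, HLA-DPA1, HLA-DPB1, HLA-DQA1, HLA-DQB1, HLA-DMA, HLA-DMB, CD74 and CIITA. They were picked by gene symbol out of 57290 annotated genes, and each symbol matched 1 gene. RNA came from KMM1 cells, an established line of malignant human plasma cells (multiple myeloma). In 3 libraries the cells carried a lentivirus that expressed TAZ, the transcriptional coactivator encoded by WWTR1 that works with TEAD factors in the Hippo pathway. In the other 3 they carried the empty vector, WPI, and serve as the control. All 6 libraries were taken 4 days after transduction, so the control cells also carried a lentivirus. The labels name no separate cultures for the libraries of a group. P-values then reflect variation among these libraries alone, and that variation may be technical.

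MHC class II molecules are heterodimers of an alpha and a beta chain that present peptides from endosomes to CD4+ T cells. CD74, the invariant chain, escorts new dimers and blocks their groove, cathepsins trim it, and HLA-DM then exchanges its last fragment for peptide. CIITA does not bind DNA itself: it is recruited by the RFX complex, CREB and NF-Y on the X and Y boxes of class II promoters and switches these genes on together. B cells express CIITA, plasma cells normally silence it through PRDM1 (Blimp-1), and interferon gamma induces it in many cell types, in part through IRF1.

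The promoter stretches below are shown because the X and Y boxes are the sequence that class II genes share and through which CIITA acts. They come from RefSeq on build GRCh38.p14, whereas the expression files use hg19. Windows of 300 bases, from 250 before to 50 after the transcription start, were matched for 8 of the 10 genes (9 windows). HLA-DRA and CIITA were not matched. The X box was searched as a motif of 10 letters, whose matches are the capitals that begin with AG, and the Y box as ATTGG, each on both strands. Each line runs 5′ to 3′ on the gene's own strand, with the matched boxes in capitals. CCAAT is ATTGG read on the other strand.
HLA-DRB1 (chr6:32589880-32589937, minus strand): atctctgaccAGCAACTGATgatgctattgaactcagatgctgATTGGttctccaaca
HLA-DQB1 (chr6:32666731-32666788, minus strand): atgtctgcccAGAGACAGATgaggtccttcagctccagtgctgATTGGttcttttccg
HLA-DMA (chr6:32953162-32953220, minus strand): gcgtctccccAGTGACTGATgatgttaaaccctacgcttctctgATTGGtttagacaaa
HLA-DMB (chr6:32941041-32941126, minus strand): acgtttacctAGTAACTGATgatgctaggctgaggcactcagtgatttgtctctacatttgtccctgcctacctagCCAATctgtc
CD74 (chr5:150412949-150413003, minus strand): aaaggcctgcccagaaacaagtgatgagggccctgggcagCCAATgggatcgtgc
HLA-DQA1 (chr6:32637298-32637352, plus strand): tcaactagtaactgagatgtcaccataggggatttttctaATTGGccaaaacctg
HLA-DPB1 (chr6:33075851-33075905, plus strand): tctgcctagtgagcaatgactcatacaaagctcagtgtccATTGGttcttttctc

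In HLA-DRB1 and HLA-DQB1 the X and Y boxes lay 23 bases apart, and in HLA-DMA 24 bases apart. In these 3 of the 8 genes an X match was followed by a Y match within 40 bases on the same strand. The same was found in 21 of 35116 promoter windows, which is 0.0598%. HLA-DMB held 3 X matches. Its only exact Y match lay 56 bases beyond the X match printed above, on the other strand. That match need not be the Y box of this gene, since a box that departs from the searched letters would not be marked. A Y match alone is common: 7 of the 8 genes had one, and so did 34.6% of all windows. The X box motif, as searched, was matched in 4 of the 8 genes and in 2.29% of windows. Boxes that depart from the searched letters would be missed. A gene without a match may therefore still hold a box. The TEAD motif GGAATG was found in HLA-DRB1, 22 bases after the start, and in HLA-DMA, 211 bases before it, and in 14% of all windows. The interferon-type GAS motif TTCNNNGAA, which reads the same on both strands, was found in HLA-DQA1 and in 7.66% of windows. The 2 windows of HLA-DPA1 held none of the 4 motifs. Matches on both strands and matches that overlapped another motif were all kept. They describe letters and do not show binding.

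WWTR1 marked the groups as labelled, at 365, 138 and 145 TPM (transcript abundance relative to all transcripts of a library, scaled between libraries) in TAZ cells, against 2.35, 1.21 and 1.40 TPM in control cells. TPM is proportional to reads per base of transcript, so levels can be set side by side between genes. The comparison is less certain for genes whose reads were placed on models not typed as coding, or on models that changed between libraries, as described below. Aligned sequence was 1608, 1130.4 and 1230.05 megabases in the TAZ libraries and 1719, 2033 and 1099.95 megabases in the control libraries. The 2 least deeply sequenced libraries were thus control 3 and TAZ 2. Plasma cell markers summed to 2837 to 3233 TPM in TAZ libraries and 2406 to 3129 TPM in control libraries. Most of this was IGJ and XBP1, and not every marker was abundant. XBP1 had 841, 619 and 736 TPM in TAZ libraries and 908, 157 and 1051 TPM in control libraries. MZB1, TNFRSF17 and CD38 averaged 20.9, 24.6 and 4.66 TPM in TAZ cells and 27.4, 49.0 and 5.88 TPM in control cells. The sum also joins markers that differed in opposite directions, as given below. Of 19390 genes tested with limma across all genes, 623 passed an adjusted p of 0.05 (436 higher and 187 lower in TAZ cells).

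All 10 genes had signal in every KMM1 library, and none of the 10 passed the limma test (0 of 10, where 3.21% of all tested genes did, 2.25% higher and 0.964% lower). The HLA-DR alpha chain was the member that differed most: its mean in TAZ cells was 0.496 of that in control cells. HLA-DRA, HLA-DPB1, HLA-DQA1 and HLA-DMB were lower in every TAZ library than in any control library (4 of 10, where 14.8% of tested genes did the same), and none was higher in every TAZ library (10.1% of tested genes). In either direction 24.9% of tested genes had groups without overlap. Of the 4 genes, HLA-DMB rests on a model not typed as coding. HLA-DPB1 and HLA-DQA1 rest on models that changed between libraries, as described below. Without adjustment, 5 of the 10 had a limma p under 0.05, against 18% of tested genes. The log2 difference was below 0 for 9 of the 10, and for 10624 of the 19390 tested genes. Its median was -0.43 over the 10, beside a median of -0.05 over all tested genes. Without scaling between libraries 7 of the 10 were below 0 and the median of all genes was 0.17. No other test method was run on these values.

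**Figure D1:**
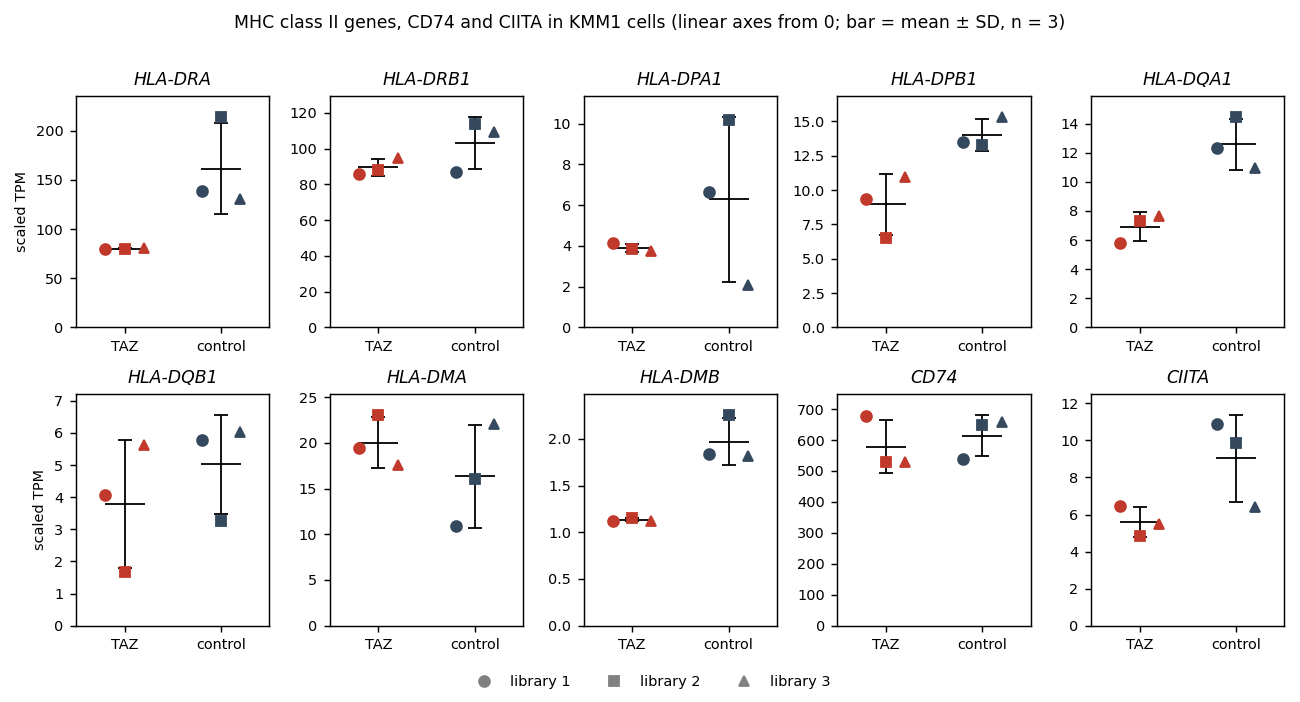
Level of each of the 10 genes in every library, in scaled TPM on linear axes from 0; TAZ libraries stand left of control libraries in each panel, points are libraries, and bars are the mean ± SD (n = 3). HLA-DRA, HLA-DPB1, HLA-DQA1 and HLA-DMB separate the groups, with TAZ libraries lower, while CD74 and HLA-DRB1 overlap. HLA-DPB1 and HLA-DQA1 rest on transcript models that changed between libraries, and HLA-DMB on a model not typed as coding.

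The order of levels was much the same in both groups. CD74 came first by far, at 579 ± 85.5 TPM in TAZ cells and 614 ± 66.8 TPM in control cells (SD, n = 3 each). In TAZ cells HLA-DRB1, HLA-DRA and HLA-DMA followed in that order with no overlap between libraries, whereas in control cells HLA-DRA stood above HLA-DRB1, again with no overlap. Below them HLA-DPB1, HLA-DQA1, CIITA, HLA-DPA1 and HLA-DQB1 lay close together: in TAZ cells the neighbours HLA-DPB1 and HLA-DQA1, HLA-DQA1 and CIITA, and HLA-DPA1 and HLA-DQB1 overlapped. In control cells HLA-DMA and HLA-DPB1, HLA-DPB1 and HLA-DQA1, CIITA and HLA-DPA1, and HLA-DPA1 and HLA-DQB1 overlapped. HLA-DMB was last in both groups. The ranks of HLA-DQB1, HLA-DMA and HLA-DMB rest on models not typed as coding. Those of HLA-DPA1, HLA-DPB1 and HLA-DQA1 rest on models that changed between libraries, as described below.

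Among the classical chains, HLA-DRA (ENSG00000204287.9, hg19 chr6:32407619-32412823, plus strand) encodes the nearly invariant HLA-DR alpha chain. It had 79.5, 79.8 and 80.9 TPM in TAZ libraries 1 to 3, against 139, 214 and 131 TPM in control libraries 1 to 3. The TAZ libraries lay close together, and every control library was above them. The means were 80.1 ± 0.722 TPM and 161 ± 46.0 TPM, a log2 difference of -0.97 ± 0.22 (SE, 95% interval -1.50 to -0.43) with a limma adjusted p of 0.0846. The interval on the fold scale ran from 0.354 to 0.741. In bulk RNA, fewer cells that express a gene and less RNA per cell cannot be told apart.

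HLA-DRB1 (ENSG00000196126.6, chr6:32546546-32557625, minus strand) encodes the beta chain that pairs with HLA-DRA. Its levels were 85.8, 88.1 and 94.6 TPM in TAZ cells and 86.6, 114 and 109 TPM in control cells. The groups overlapped, since control library 1 sat among the TAZ libraries. The log2 difference was -0.20 ± 0.17 (limma adjusted p = 0.579), with a 95% interval of -0.61 to 0.21, and it was 0.064 without scaling between libraries. HLA-DRB1 has near-identical relatives, so its reads may have been divided among them.

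The ratio of the 2 HLA-DR chains separated these 6 libraries by group, without passing a test. HLA-DRA over HLA-DRB1 was 0.926, 0.906 and 0.855 in TAZ libraries, against 1.60, 1.88 and 1.19 in control libraries. All TAZ libraries held less HLA-DRA than HLA-DRB1 and all control libraries more, by these estimates. Both genes have exons listed at 0 in some or all libraries, as given below. Whether the ratio depends on this was not tested. A ratio within a library does not depend on scaling between libraries. The exact two-sided permutation test gave p = 0.1, the smallest that 3 against 3 libraries allow, and 0.12 after Benjamini-Hochberg adjustment over the 6 such tests made. CD74 over HLA-DRA was 8.52, 6.65 and 6.53 in TAZ libraries and 3.87, 3.02 and 5.04 in control libraries, and HLA-DRA over HLA-DMA was 4.09, 3.46 and 4.61 in TAZ libraries and 12.7, 13.4 and 5.91 in control libraries. Both had the same exact permutation p, 0.1 (adjusted 0.12). These 3 ratios were chosen after the values had been seen.

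The HLA-DQ chains were less abundant. HLA-DQA1 (ENSG00000196735.7, chr6:32595956-32614839, plus strand), the alpha chain, had 5.80, 7.31 and 7.66 TPM in TAZ cells and 12.3, 14.5 and 10.99 TPM in control cells. Every TAZ library was below every control library. The log2 difference was -0.78 ± 0.18 (95% interval -1.21 to -0.34, limma adjusted p = 0.0876). HLA-DQB1 (ENSG00000179344.12, chr6:32627244-32636160, minus strand), the beta chain, had 4.07, 1.66 and 5.62 TPM in TAZ cells and 5.78, 3.26 and 6.04 TPM in control cells. These overlapped, with library 2 the lowest in both groups (log2 difference -0.40 ± 0.38, limma adjusted p = 0.615). The difference rests on single libraries: it was -0.024 without TAZ library 2, -0.68 without TAZ library 3 and -0.63 without control library 2.

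HLA-DPB1 (ENSG00000223865.6, chr6:33043703-33054978, plus strand), the HLA-DP beta chain, had 9.35, 6.55 and 10.98 TPM in TAZ cells and 13.5, 13.3 and 15.3 TPM in control cells. The TAZ libraries were all lower (log2 difference -0.62 ± 0.21, 95% interval -1.12 to -0.11, limma adjusted p = 0.209). Its partner HLA-DPA1 (ENSG00000231389.3, chr6:33032346-33048552, minus strand), the alpha chain, had 4.13, 3.83 and 3.77 TPM in TAZ cells and 6.64, 10.2 and 2.08 TPM in control cells. The control libraries spread on both sides of the TAZ libraries (log2 difference -0.38 ± 0.45, limma adjusted p = 0.683), and the difference was 0.016 without control library 2 and -0.92 without control library 3. The 2 genes overlap by 4850 bases on opposite strands. Whether strand was used when reads were assigned is not stated, so reads from the shared stretch cannot be told apart. In the TAZ libraries and control library 3, all HLA-DPA1 signal lay on a model that ends before HLA-DPB1 begins. In control libraries 1 and 2 most of it lay on a model that reaches into the shared stretch.

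Of the chains that act inside the cell, CD74 (ENSG00000019582.10, chr5:149781200-149792492, minus strand) had 677, 530.4 and 528 TPM in TAZ cells and 538, 647 and 659 TPM in control cells. The groups overlapped fully. The log2 difference of -0.09 ± 0.19 had a 95% interval of -0.55 to 0.37 (limma adjusted p = 0.832), and it was 0.17 without scaling between libraries. HLA-DMA and HLA-DMB, the alpha and beta chains of the peptide exchanger HLA-DM, pointed to opposite sides. HLA-DMA (ENSG00000204257.10, chr6:32916390-32936871, minus strand) had 19.5, 23.1 and 17.6 TPM in TAZ cells and 10.9, 16.05 and 22.1 TPM in control cells. It was the only member above 0 in log2 difference, at 0.32 ± 0.27, with overlapping groups (limma adjusted p = 0.564), and it was 0.076 without control library 1 and 0.55 without control library 3. HLA-DMB (ENSG00000242574.4, chr6:32902406-32908847, minus strand) was near the floor of the filter, at 1.13, 1.15 and 1.12 TPM in TAZ cells and 1.83, 2.26 and 1.82 TPM in control cells. Its groups did not overlap, and its log2 difference was -0.47 ± 0.17 (limma adjusted p = 0.233).

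CIITA (ENSG00000179583.13, chr16:10971055-11026079, plus strand), the coactivator of all of these genes, had 6.48, 4.86 and 5.49 TPM in TAZ cells and 10.9, 9.84 and 6.39 TPM in control cells. Control library 3 lay just below TAZ library 1, so the groups overlapped, and the other control libraries were higher. The means were 5.61 ± 0.816 TPM in TAZ cells and 9.03 ± 2.35 TPM in control cells. The log2 difference was -0.58 ± 0.23 (95% interval -1.13 to -0.03, limma adjusted p = 0.259).

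Summed over the 10 genes, the level was 893, 747 and 756 TPM in TAZ libraries, against 825, 1044 and 964 TPM in control libraries. The sums overlapped. They are mostly CD74, and as a share of all deposited TPM they were 0.0859%, 0.0893% and 0.0929% in TAZ libraries and 0.0820%, 0.0986% and 0.0841% in control libraries.

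The gene levels are sums over annotated transcript models, and the split between models differed by gene. The 10 genes have 74 models, of which 30 carried signal in at least 1 library. Models were typed by GENCODE 29, matched by transcript ID for 71 of 74. HLA-DRA has 2 models and HLA-DRB1 has 1, all typed as protein-coding. Their coding share is therefore 100% by annotation and says nothing about how their reads were placed. Of the CD74 signal, 98.04% to 99.68% lay on protein-coding models in TAZ libraries and 98.7% to 99.5% in control libraries. CIITA had a coding share of 88.8%, 95.1% and 78.5% in TAZ libraries and 75.7%, 74.6% and 84.4% in control libraries. HLA-DPB1 had 42.2%, 60.9% and 13.3% in TAZ libraries and 62.8%, 99.2% and 61.9% in control libraries. A HLA-DPB1 model with signal in 4 libraries has no GENCODE 29 type and is counted here as not coding. HLA-DPA1 had a coding share of 0% in every TAZ library and 75.5%, 99.9% and 0% in the control libraries, with the rest on a retained-intron model. HLA-DQA1 had 0%, 0% and 22.1% in TAZ libraries and 89.6%, 26.2% and 0% in control libraries, with much of the rest on a nonsense-mediated decay model.

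In HLA-DQB1, HLA-DMA and HLA-DMB no coding model was given any signal in the 6 libraries. HLA-DQB1 was assigned to a single retained-intron model (ENST00000487676.1), and most HLA-DMA signal to the retained-intron model ENST00000477541.1. The levels of these 3 genes are therefore levels of whatever reads the quantifier placed on models that are not typed as coding. A value of 0 in these files can be a failed estimate: exon 4 of HLA-DRA is listed at 0 in all 6 libraries, between exons that are covered in all of them. Class II genes are highly polymorphic, and how reads from alleles unlike the reference were placed is not stated. Whether these values depend on it was not tested. HLA-DMA also overlaps BRD2 by 435 bases on the opposite strand. That stretch belongs to the HLA-DMA model ENST00000422832.1, which was at 0 in all 6 libraries. The HLA-DMA models with signal do not reach BRD2. BRD2 averaged 115 ± 11.7 TPM in TAZ cells and 146 ± 18.3 TPM in control cells.

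**Figure D2:**
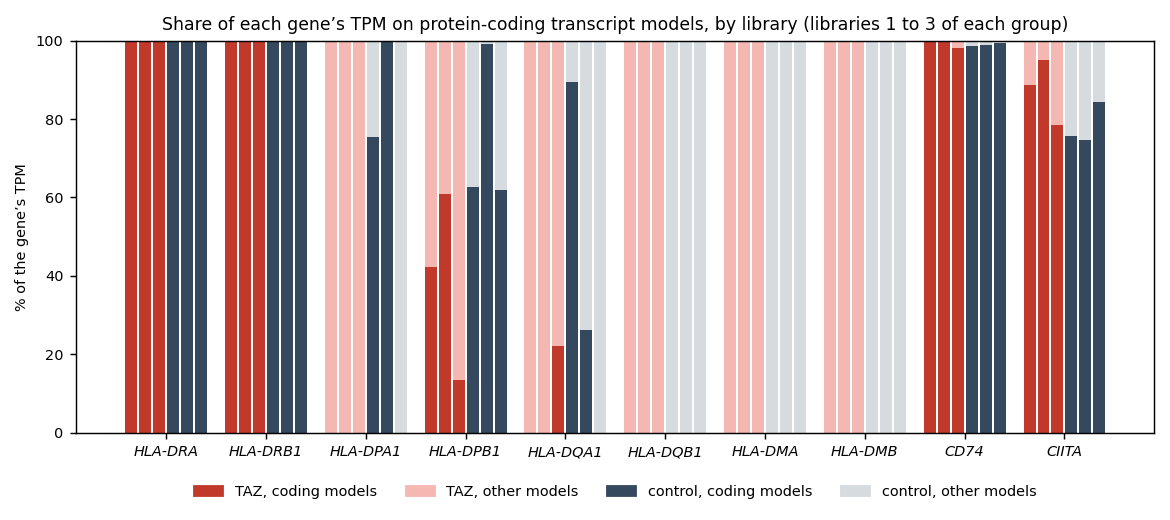
Percent of each gene's TPM that lay on protein-coding transcript models, for each library, TAZ libraries left of control libraries. HLA-DRA and HLA-DRB1 have only coding models and so are at 100% by annotation. HLA-DQB1, HLA-DMA and HLA-DMB are at 0% throughout, and HLA-DPA1 and HLA-DQA1 range between 0% and 99.9%.

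Exon by exon, 3 of the 5 exons of HLA-DRA were covered in all 6 libraries, and the groups were apart in each of these. Depth below is reads per base per 1000 megabases of aligned sequence. The scaling factors between libraries that were used for TPM were not applied to depth. Ratios of depth are therefore not on the same footing as ratios of gene levels. Exon 2 of HLA-DRA (chr6:32410225-32410470) had a depth of 55.8, 68.7 and 78.6 in TAZ libraries and 95.3, 162 and 104 in control libraries. The ratio of TAZ to control means was 0.562 in exon 2, 0.644 in exon 3 and 0.475 in exon 5. Exon 1 had a depth of 30.2, 0 and 0 in TAZ libraries and 0, 64.7 and 0 in control libraries, with overlapping groups, and exon 4 was at 0 throughout. In HLA-DRB1, exons 4 and 5 were at 0 throughout. Exon 1 of HLA-DRB1 had a depth of 0, 37.9 and 0 in TAZ libraries and 32.5, 35.4 and 36.6 in control libraries. The longest CD74 exon (exon 6, 614 bases) had a depth of 457, 418 and 431 in TAZ libraries and 386, 396 and 435 in control libraries, with overlapping groups.

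CIITA can start from alternative first exons, which are used in dendritic cells, in B cells or after interferon gamma. Its only coding model with signal, ENST00000324288.8, has 20 exons, and most of its depth-weighted bases lay on the last one: 86.2%, 87.4% and 83.8% in TAZ libraries and 76.7%, 78.4% and 81.0% in control libraries. Over exons 1 to 19 (3548 bases) depth was 1.07, 0.865 and 1.09 in TAZ libraries and 2.61, 2.09 and 1.34 in control libraries. Here the groups were apart and the ratio of means was 0.501. The TAZ mean was lower in 16 of the 19 exons, and the other 3 exons were listed at 0 in all 6 libraries. In exons 1, 6 and 7 the lower TAZ mean rests on a single control library, since the other 5 libraries were at 0. In several others, such as exons 8 and 9, the groups overlapped. Exons of the same transcript are not independent of each other.

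Over the last exon (chr16:11017735-11023624, 5890 bases) depth was 4.03, 3.63 and 3.41 in TAZ libraries and 5.17, 4.59 and 3.44 in control libraries. These groups overlapped, with a ratio of 0.838. The exact two-sided permutation p was 0.1 for exons 1 to 19 (adjusted 0.12) and 0.3 for the last exon (adjusted 0.3). The plan had named this test for single exons and not for exons 1 to 19 pooled. The last exon shares 877 bases with DEXI on the opposite strand, and DEXI itself was at 0.168 ± 0.291 TPM in TAZ cells and 0.0593 ± 0.103 TPM in control cells. Exon 11, the longest internal exon (1651 bases), had a depth of 1.53, 1.21 and 1.64 in TAZ libraries and 3.61, 2.68 and 1.91 in control libraries, again apart (exact permutation p = 0.1, adjusted 0.12). Exon 1 of this model was listed at 0 except in control library 2, at 2.47, so the files do not resolve which first exon was used.

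**Figure D3:**
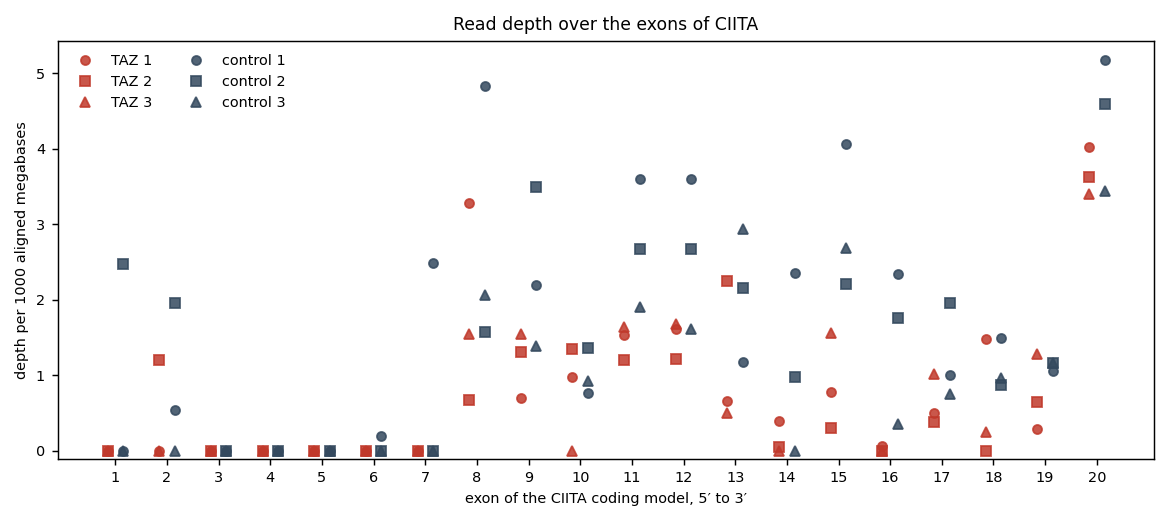
Depth of each of the 20 exons of the CIITA coding model (5′ to 3′), in reads per base per 1000 aligned megabases; points are libraries, with TAZ libraries left of control libraries at each exon. In exon 11 TAZ libraries lie at 1.21 to 1.64 and control libraries at 1.91 to 3.61, while in the last exon, the deepest in every library, the groups overlap.

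The proteins that bring CIITA to class II promoters did not pass the test in either direction (0 of 12, with a median log2 difference of -0.13, beside -0.05 over all genes). Of the RFX complex, which binds the X box, RFX5 averaged 52.6 ± 2.55 TPM in TAZ cells and 67.6 ± 13.8 TPM in control cells, and RFXAP averaged 8.72 ± 1.76 TPM in TAZ cells and 8.21 ± 1.68 TPM in control cells. RFXANK had 38.1, 19.2 and 3.40 TPM in TAZ libraries and 40.01, 34.7 and 35.7 TPM in control libraries (limma adjusted p = 0.401), so its TAZ libraries differed widely from each other. The NF-Y subunits, which bind the Y box, averaged 16.6 TPM for NFYA, 6.96 TPM for NFYB and 12.1 TPM for NFYC in TAZ cells, against 20.9, 7.31 and 13.9 TPM in control cells. CREB1 averaged 6.80 ± 2.24 TPM in TAZ cells and 9.01 ± 2.73 TPM in control cells. The acetyltransferase KAT2B averaged 3.04 ± 0.163 TPM in TAZ cells and 2.17 ± 0.335 TPM in control cells, higher in every TAZ library (limma adjusted p = 0.333). The coactivators EP300, CREBBP, CARM1 and ZXDC averaged 21.6, 7.91, 38.7 and 14.3 TPM in TAZ cells and 26.2, 8.10, 49.1 and 14.3 TPM in control cells. EP300 was lower in every TAZ library than in any control library (limma adjusted p = 0.442).

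Of the transcription factors that act on the CIITA gene, 8 of 11 were tested; IRF1 rose and IRF4 fell. IRF1, which binds the interferon-responsive CIITA promoter, had 86.7, 73.2 and 77.95 TPM in TAZ cells and 6.28, 6.07 and 5.65 TPM in control cells, a log2 difference of 3.52 ± 0.15 (limma adjusted p = 0.000228). IRF1 was far higher in every TAZ library than in any control library, while CIITA averaged 5.61 TPM in the same TAZ cells and 9.03 TPM in control cells.

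IRF4, a factor of the plasma cell program, had 193, 222 and 185 TPM in TAZ cells and 527, 454 and 348 TPM in control cells. Its log2 difference was -1.13 ± 0.21 (limma adjusted p = 0.0421). This call was lost without TAZ library 1, 2 or 3 (0.0857, 0.140 and 0.173), without control library 1 or 2 (0.108 and 0.167), without scaling (0.150) and without the filter on low TPM (0.125, limma adjusted p throughout). PRDM1, the repressor of CIITA in plasma cells, averaged 65.6 ± 1.44 TPM in TAZ cells and 83.6 ± 10.3 TPM in control cells (limma adjusted p = 0.324). MYBL2 averaged 266 ± 102 TPM in TAZ cells and 394 ± 52.4 TPM in control cells, and USF1 50.9 ± 2.35 TPM in TAZ cells and 60.2 ± 27.1 TPM in control cells; neither passed. SPI1, IRF8 and PAX5, factors of myeloid and B cells, were too low to be tested.

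Of the endosomal proteins that cut antigen and the invariant chain, 1 of 14 tested passed, and it rose. Cathepsin L (CTSL) had 34.15, 32.4 and 44.9 TPM in TAZ cells and 5.97, 5.19 and 4.76 TPM in control cells, a log2 difference of 2.59 ± 0.19 (limma adjusted p = 0.00113). Cathepsin S (CTSS), the main protease of the invariant chain in antigen-presenting cells, averaged 7.71 ± 0.553 TPM in TAZ cells and 6.11 ± 0.366 TPM in control cells (limma adjusted p = 0.357). The abundant cathepsins CTSD, CTSZ, CTSC and CTSB averaged 110, 89.4, 53.3 and 86.0 TPM in TAZ cells and 148, 106, 84.7 and 43.1 TPM in control cells, and none passed.

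Of the genes for class II surface turnover and the receptors linked to it, 1 of 6 tested passed, and it fell. CXCR4, a chemokine receptor that also pairs with surface CD74, had 4.79, 5.58 and 6.44 TPM in TAZ cells and 41.6, 39.8 and 20.4 TPM in control cells (log2 difference -2.35 ± 0.30, limma adjusted p = 0.00965). Without TAZ library 2 its limma adjusted p was 0.0547. MIF, the ligand of CD74, averaged 282 ± 35.1 TPM in TAZ cells and 196 ± 119 TPM in control cells (limma adjusted p = 0.430). CD44, the signalling partner of CD74, was at or below 0.0631 TPM in all 6 libraries. CD83, which protects class II from turnover, averaged 5.97 ± 1.55 TPM in TAZ cells and 10.8 ± 2.61 TPM in control cells, and the class II ubiquitin ligases MARCH8 and MARCH1 averaged 11.9 and 3.39 TPM in TAZ cells and 9.53 and 2.53 TPM in control cells; none of the 3 passed. Over these lists and the other class II chains and pseudogenes, 4 of 44 tested genes passed, 2 higher and 2 lower, beside the 3.21% of all genes.

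**Figure D4:**
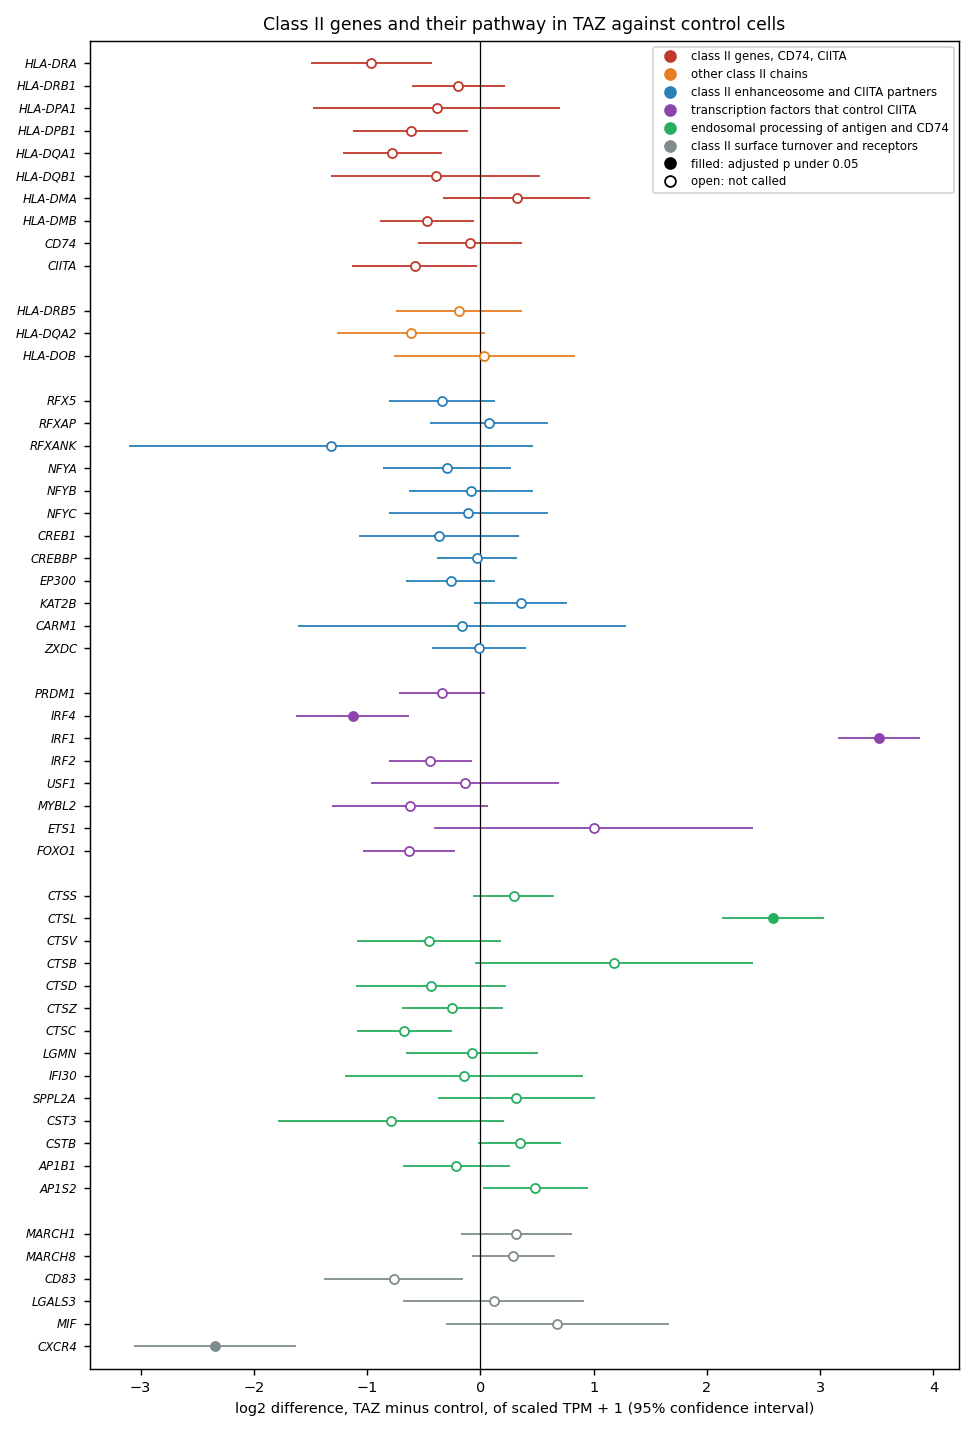
Log2 difference, TAZ minus control, of the 10 class II genes (top) and of the tested genes of the pathway lists, with 95% intervals from limma; filled points passed the adjusted p of 0.05 and open points did not. All 10 class II points are open, from HLA-DRA at -0.97 to HLA-DMA at 0.32, while IRF1 and CTSL lie far above 0 and CXCR4 far below.

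Among the other class II chains none of the 3 tested passed. HLA-DRB5 averaged 18.7 ± 3.54 TPM in TAZ cells and 21.5 ± 4.94 TPM in control cells, HLA-DQA2 4.73 ± 1.68 TPM in TAZ cells and 7.58 ± 1.56 TPM in control cells, and HLA-DOB 2.24 ± 0.573 TPM in TAZ cells and 2.32 ± 1.46 TPM in control cells. HLA-DQB2 and HLA-DOA (the alpha chain of HLA-DO, the inhibitor of HLA-DM) averaged 0.815 and 0.410 TPM in TAZ cells and 1.01 and 0.475 TPM in control cells and were not tested. HLA-DRB3 and HLA-DRB4 were listed too but matched no annotated gene on the primary chromosomes (5 of the 7 listed chains matched), so they have no values here. The pseudogene HLA-DRB6 averaged 2.31 ± 1.22 TPM in TAZ cells and 1.64 ± 0.909 TPM in control cells (limma adjusted p = 0.702).

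Markers of other cells that carry class II were low. B cell markers summed to 3.27 to 4.26 TPM in TAZ libraries and 3.64 to 6.46 TPM in control libraries over 8 genes, with MS4A1 at or below 0.297 TPM in every library, and none of the 2 tested passed. Markers of antigen-presenting myeloid cells summed to 2.08 to 2.32 TPM in TAZ libraries and 5.28 to 6.14 TPM in control libraries over 10 genes. MARCO and CD1C were at 0 in all 6. CD14, the only 1 of the 10 that was tested, fell, where 0.964% of all tested genes did. It averaged 1.51 ± 0.213 TPM in TAZ cells and 4.23 ± 0.866 TPM in control cells (limma adjusted p = 0.0435). Its limma adjusted p was 0.0594 to 0.186 when any library was left out. It was 0.08865 without scaling, 0.05025 with upper quartile scaling and 0.1265 without the filter on low TPM (limma adjusted p throughout). T and NK cell markers summed to 6.12 to 8.35 TPM in TAZ libraries and 3.01 to 4.71 TPM in control libraries, without overlap. NKG7 was at 0 in all 6. Most of the sum was TRAC (3.99 TPM in TAZ cells, 1.58 TPM in control cells) and CD8A (1.92 and 1.14 TPM). Both were higher in every TAZ library, as were 10.1% of tested genes. These were the 2 tested, and none passed (limma adjusted p 0.203 and 0.262). Of those not tested, GNLY was higher and CD3E lower in every TAZ library. Of the epithelial or packaging-line markers, 3 of 6 tested rose (KRT8, KRT18 and CLDN4), where 2.25% of all tested genes did. The 7 genes summed to 971 to 2314 TPM in TAZ libraries and 199 to 331 TPM in control libraries, and in TAZ libraries most of this was KRT8, at 864 to 2217 TPM, against 120 to 210.3 TPM in control libraries. CDH1 was lower in every TAZ library, at 25.2 ± 7.08 TPM in TAZ cells and 48.7 ± 10.5 TPM in control cells (limma adjusted p = 0.161), and EPCAM and CLDN3 overlapped between the groups. The KRT8 call was lost without control library 1 or 2 (limma adjusted p 0.0545 and 0.0628), and that of CLDN4 without TAZ library 2, control library 1 or control library 2 (0.0857, 0.0557 and 0.0677). Of the plasma cell markers, 3 of 9 tested fell (SDC1, SLAMF7 and IRF4), where 0.964% of all tested genes did. IGJ, the joining chain of secreted antibodies and the most abundant of these markers, was higher in every TAZ library, at 1841 ± 253 TPM in TAZ cells and 1147 ± 88.3 TPM in control cells (limma adjusted p = 0.131). The SLAMF7 call was lost without any of the libraries other than control 3 (limma adjusted p 0.0738 to 0.121). The part of these differences in the class II levels was not tested.

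The 5 tested genes whose log2 level followed HLA-DRA most closely over the 6 libraries were ENKD1, ZNF774, VDAC1P2, BUD13 and MIR1226, with Pearson r of 0.997, 0.997, 0.989, 0.989 and 0.988. None of the 5 passed the limma test. With 6 libraries and 19390 genes searched, these correlations are a description of 2 groups that differ in level.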

How the data were processed

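Polyadenylated RNA of 6 libraries (3 TAZ, 3 empty vector) was sequenced on an Ion Torrent Proton, per the labels' protocols. Per the submitters' processing notes, STAR 2.3.0 and Bowtie2 2.0.0 (hg19) and StringTie 1.3.3b were used. Per the file headers, StringTie estimated only the transcripts of a supplied annotation, in 1 run per library; its release and its use of strand are not given in the sources used here. The deposited values, as the authors made them, are coverage (reads per base) per transcript and exon, FPKM and TPM. No counts were used.

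TPM was summed per gene (57290 genes, 195984 transcripts) and scaled by the median of ratios over the 28148 genes above 0 in every library (factors 0.962, 1.20 and 1.23 for TAZ, 0.994, 0.944 and 0.873 for control). Genes with a mean deposited TPM of at least 1 (19390, all 10 class II genes included) entered limma 3.58.1 (R 4.3.3) as log2(scaled TPM + 1), with trend and robust settings, no block, and Benjamini-Hochberg adjustment over all tested genes at 0.05. On this scale a fold change of a low gene is understated. Values are mean ± SD over 3 libraries, and log2 differences are TAZ minus control ± SE. The fit was tested on simulated data. Aligned megabases were recovered from the ratio of coverage to FPKM. Single values were compared with exact two-sided permutation tests (scipy 1.17.1). The number of libraries and the depth limit the precision.

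The 10 genes and all lists were chosen with earlier results of these data known, and some listed genes are not reported here. Named are the 10 genes, every reported listed gene past the threshold, all other class II chains and promoter-complex genes, up to 4 further genes of a list by level, and the 5 genes most like HLA-DRA. A few others were named after their values were seen. The list of plasma cell markers included JCHAIN, which the files give under its older symbol IGJ. Alternatives covered scaling, pseudocount, filter, FPKM, limma settings, a replicate block and each library left out.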

Additional observations from a re-analysis of the deposited data

How the results depend on the processing

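None of the 10 class II genes passed the limma threshold in any of the 16 alternatives in which it was tested. HLA-DMB was tested in 14 of these and HLA-DQB1 in 15, since they missed the filter of a mean of at least 5 TPM (8 genes tested) or, for HLA-DMB, that on FPKM (9 tested). HLA-DRA ranged from -1.10 to -0.71 in log2 difference (limma adjusted p 0.0641 to 0.281), HLA-DQA1 from -0.87 to -0.54 (0.0688 to 0.355) and CIITA from -0.80 to -0.36 (0.0741 to 0.555). The scaling factors planned from edgeR were not run, since the files hold no counts; a trimmed mean scaling chosen after seeing the data took their place. The number of genes called over all genes was 623, against 352 without the filter on low TPM and 236 with a replicate block, and 278 to 774 when 1 library was left out. Without scaling 618 were called, 533 higher and 85 lower, in place of 436 and 187. With the block IRF4 (limma adjusted p = 0.133), CXCR4 (0.0748), SDC1 (0.0653), SLAMF7 (0.130), KRT8 (0.109), CLDN4 (0.0941) and CD14 (0.162) were not called. The pathway lists had 4 called genes, against 2 with the replicate block and 2 to 4 when 1 library was left out. Same-numbered libraries did not deviate together (r of 0.00401, -0.0244 and -0.0549), so no pairing by number was seen in these values. Such correlations cannot show whether same-numbered libraries were prepared together.

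Of 554 values for 35 genes, 491 kept direction and call, 38 lost the call and 25 changed sign. Without scaling the log2 difference was 0.064 for HLA-DRB1, 0.17 for CD74, 0.060 for HLA-DRB5, 0.15 for NFYB, 0.14 for NFYC, 0.20 for CREBBP, 0.10 for CARM1 and 0.23 for ZXDC, all below 0 with it. With upper quartile scaling it was 0.025 for CREBBP and 0.043 for ZXDC. When 1 library was left out it ranged from -0.92 to 0.016 for HLA-DPA1, -0.68 to -0.024 for HLA-DQB1, 0.076 to 0.55 for HLA-DMA, -0.31 to -0.12 for HLA-DRB1, -0.21 to -0.034 for CD74, -0.22 to 0.37 for HLA-DOB, -0.026 to 0.23 for RFXAP, -0.27 to 0.084 for NFYB, -0.35 to 0.19 for NFYC, -0.083 to 0.018 for CREBBP, -0.83 to 0.20 for CARM1 and -0.10 to 0.10 for ZXDC. The log2 ratio of CIITA depth over exons 1 to 19 ranged from -1.22 to -0.77. The causes were not tested. Of the 10 genes, HLA-DPA1 (SE 0.45) and HLA-DQB1 (SE 0.38) had the largest errors.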
